A study of Mus musculus with 6 samples.

Results

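Target clusters of the let-7 family were examined in AGO2 chimeric eCLIP data from newborn mouse brain. In this assay AGO2 is immunoprecipitated (IP) after UV crosslinking and the miRNA it holds is ligated to the RNA beside it, so that 1 read names both the miRNA and its target. A target cluster is a stretch of the genome where such reads pile up, and the file names every miRNA found there. The clusters that name let-7a-5p, b, c, d, e, f, g or i, or miR-98-5p, were collected, and each coordinate was counted once. They came to 1318 of 18029 target clusters in WT, 2358 of 27152 in *Mov10* Deletion replicate 1 and 978 of 12379 in *Mov10* Deletion replicate 2. Over the 3 libraries these are 4381 different coordinates of 53496.

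The libraries were made from whole brains of C57Bl/6J mice at postnatal day 0, with 1 WT and 2 *Mov10* Deletion samples, each with its own size-matched input. *Mov10* Deletion mice come from a cross of the *Mov10* cKO, in which *Emx1*-Cre removes floxed *Mov10* exons from cortical and hippocampal excitatory neurons, with a *Mov10* heterozygous mutant. Brain cells without *Emx1*-Cre keep the floxed exons. With 1 WT library no test of the genotypes was possible, and the exact Clopper-Pearson 95% intervals given with shares cover counting error within a library only.

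let-7 miRNAs are among the most conserved small RNAs. They are made from several loci, accumulate as progenitor cells differentiate, and silence messenger RNAs of growth, cell cycle and early development. LIN28 proteins block their maturation in early cells. Like other miRNAs they pair with a target mainly through the seed, nucleotides 2 to 8, while AGO2 carries the miRNA and recruits silencing factors such as the TNRC6 proteins. MOV10 is an RNA helicase that associates with AGO2.

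The mature sequences from RefSeq (GRCm38.p6) are shown because the members share a seed and differ by few bases outside it. All 9 were found, and each has the same seed, which is in capitals.
let-7a-5p: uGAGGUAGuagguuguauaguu
let-7b-5p: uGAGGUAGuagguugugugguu
let-7c-5p: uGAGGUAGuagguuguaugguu
let-7d-5p: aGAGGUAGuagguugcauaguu
let-7e-5p: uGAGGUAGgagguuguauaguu
let-7f-5p: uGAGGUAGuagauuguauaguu
let-7g-5p: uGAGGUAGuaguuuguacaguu
let-7i-5p: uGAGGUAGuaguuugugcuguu
miR-98-5p: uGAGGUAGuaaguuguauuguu

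Counted from the 5′ end, let-7c-5p differs from let-7a-5p by 1 base, A19G, and let-7b-5p by A17G and A19G. let-7e-5p differs by U9G and let-7f-5p by G12A. The most distant member, let-7i-5p, differs by G12U, A17G, U18C and A19U. How reads that fit more than 1 member were assigned is not given in the sources used here, and the naming of a member is uncertain to that extent.

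let-7c-5p was the member named most often in every library. It was named at 59.0% of the WT family clusters (56.2 to 61.6), 42.9% of those of *Mov10* Deletion replicate 1 (40.9 to 44.9) and 42.2% of those of replicate 2 (39.1 to 45.4). let-7b-5p followed with 31.5%, 23.0% and 20.2%, and let-7a-5p with 24.4%, 17.1% and 17.5%. The WT library lay above both *Mov10* Deletion libraries for each of these 3 members. let-7d-5p was named at 7.21%, 7.34% and 7.06% of the clusters, and let-7i-5p at 6.37%, 6.40% and 5.93%, with intervals that overlapped between all libraries. miR-98-5p was rare, at 3, 11 and 3 clusters.

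**Figure D1:**
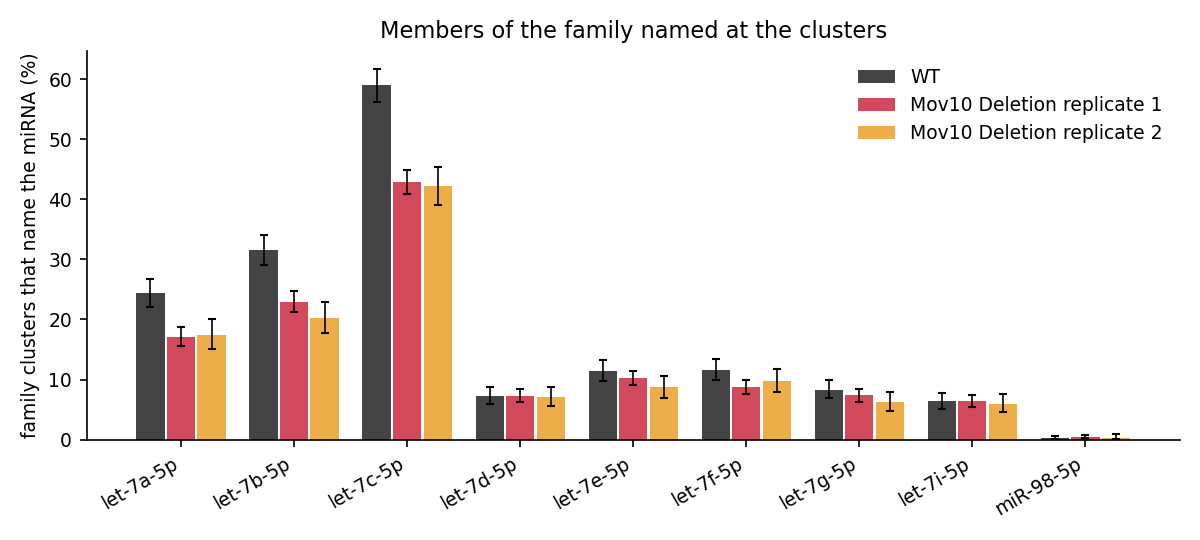
Share of the family clusters of each library (y axis, %) at which each member is named (x axis), with exact 95% intervals as error bars. let-7c-5p is the tallest in every library, and the WT bars stand above the *Mov10* Deletion bars for let-7a-5p, let-7b-5p and let-7c-5p.

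The number of members named per cluster moved with this difference. In WT, 380 of the 1318 family clusters (28.8%, 26.4 to 31.4) named more than 1 member, against 306 (13.0%, 11.6 to 14.4) and 92 (9.41%, 7.65 to 11.4) in *Mov10* Deletion replicates 1 and 2. Among clusters that named a single member, let-7c-5p was that member in 46.1% in WT (42.8 to 49.3), 37.3% (35.2 to 39.5) and 38.4% (35.2 to 41.7). let-7d-5p was the single member in 2.67% in WT (1.73 to 3.91), 5.70% (4.74 to 6.79) and 5.30% (3.92 to 6.99). The intervals of WT and of both *Mov10* Deletion libraries did not overlap for let-7c-5p and let-7d-5p in these clusters. For let-7a-5p they did, at 11.8%, 12.6% and 13.4%. The WT family clusters were also wider, with a median of 89 nt against 70 nt and 74 nt. All target clusters had medians of 78 nt, 66 nt and 68 nt, so that WT was the widest there too. The part of width in the differences in members was not tested. Genotype, a single WT brain and the calling of the clusters cannot be told apart here.

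The family made up 7.31% of all WT target clusters (6.93 to 7.70), 8.68% of those of *Mov10* Deletion replicate 1 (8.35 to 9.03) and 7.90% of those of replicate 2 (7.43 to 8.39). The intervals of the *Mov10* Deletion replicates overlapped, and so did those of replicate 2 and WT, while replicate 1 lay above WT. When each miRNA named at a cluster was counted on its own, WT and replicate 1 were level at 9.55% and 9.54%, and replicate 2 lay below both at 8.56%. WT named more members per family cluster, as given above.

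Each cluster carries a score whose meaning is not given in the sources used here and which was at least 3 in every line. Most family clusters scored low. The median of the highest family score was 4 in WT, 4 for *Mov10* Deletion replicate 1 and 3.98 for its replicate 2, and a score of 10 or more was reached by 115, 118 and 41 clusters. The highest family score went up with the number of members named, and as a maximum over those members it would tend to do so in any case. Clusters with 1 member had a median of 3.70 in WT and those with at least 4 members a median of 13.2, and the *Mov10* Deletion libraries gave 3.85 and 12.7, and 3.84 and 15. Other miRNAs were named as well at 320, 372 and 113 family clusters. The neuronal miRNA miR-124-3p was among them at 199, 198 and 69, and miR-9-5p at 79, 85 and 30. Over all 18029, 27152 and 12379 target clusters miR-124-3p was named 9312, 10630 and 4962 times and miR-9-5p 2013, 2041 and 924 times. Each target cluster names at least 1 miRNA, and most family clusters named none outside the family. A lower share of other miRNAs at family clusters was thus built in. Whether these miRNAs share places with the family was not tested.

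The highest scores lay on ribosomal RNA. On *mt-Rnr1*, the mitochondrial 12S rRNA, 1 WT cluster at chrM:619-720 scored 3153 and named all 9 members among 41 miRNAs. In *Mov10* Deletion the highest cluster, chrM:648-721, scored 1498 in replicate 1 with 27 miRNAs and 711 in replicate 2 with 19. AGO2 was not enriched there, with a log2 of 2.34 in WT (−log10 p 2.44), 0.92 and 1.12. *mt-Rnr2*, the mitochondrial 16S rRNA, had highest family scores of 54.6, 43.1 and 26.6. *Rn18s-rs5*, annotated as an 18S rRNA pseudogene on chromosome 17, had 127, 119 and 55.01, with an AGO2 log2 of 1.16, 2.09 and 3.37. Its reads cannot be told apart from those of the many 18S rRNA copies. The mitochondrial genome held 22, 14 and 14 family clusters, or 1.67%, 0.594% and 1.43%, where it held 0.166%, 0.0958% and 0.170% of all target clusters. *Rn18s-rs5* held 14, 16 and 12, or 1.06%, 0.679% and 1.23%, where it held 0.0943%, 0.0737% and 0.162% of all. Up to 50, 71 and 44 miRNAs were named at a single one of these *Rn18s-rs5* clusters. Reads on rRNA were removed by the authors before the AGO2 clusters were called, and whether the same was done to the target end of chimeric reads is not given in the sources used here. Without these clusters the family's share of target clusters was 7.13% in WT and 8.15% on average in *Mov10* Deletion.

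Most family clusters lay in protein-coding genes, 92.1% in WT, 94.0% for *Mov10* Deletion replicate 1 and 93.1% for its replicate 2. lncRNA genes held 26, 40 and 16 (1.97%, 1.70% and 1.64%, all target clusters 1.57%, 1.75% and 1.83%). In no gene on their strand lay 39, 63 and 22 (2.96%, 2.67% and 2.25%, all target clusters 2.51%, 2.35% and 2.24%). Genes are RefSeq gene bodies of mm10 (GRCm38.p6), and exons and introns were not separated because exon positions of this build were not used here. The last 1000 nt of a gene, where a 3′ UTR usually lies, held 14.6% of the WT family clusters (12.7 to 16.6), where all WT target clusters gave 17.4%. The *Mov10* Deletion libraries gave 10.9% (9.67 to 12.2) against 13.0%, and 13.7% (11.6 to 16.0) against 14.3%. Family clusters thus lay at gene 3′ ends no more often than target clusters at large, and in WT and replicate 1 their interval stayed below the share of all clusters. The median distance from the gene end was 11114 nt for the WT family clusters, 23018 nt and 15900 nt for those of *Mov10* Deletion, where all target clusters had 8617 nt, 18680 nt and 14700 nt.

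Family clusters lay on enriched AGO2 clusters more often than target clusters in general. An AGO2 cluster, called from all reads of the IP, was taken as enriched where the log2 of IP over input reached 3 and the −log10 p reached 3 too. In WT, 355 family clusters (26.9%, 24.6 to 29.4) overlapped one, where all target clusters gave 15.0%. In *Mov10* Deletion replicate 1 there were 391 (16.6%, 15.1 to 18.1) against 11.7%, and in replicate 2 there were 163 (16.7%, 14.4 to 19.2) against 12.0%. The excess was therefore seen in each of the 3 libraries. Family clusters had a larger median width than all target clusters, as given above, and the part of width in this excess was not tested. The WT share stood above both *Mov10* Deletion shares for the family, and so it did for all target clusters.

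The share rose with the score. In WT 19.9% of family clusters under a score of 5 were on an enriched AGO2 cluster (17.3 to 22.7), 37.1% of those from 5 to under 10 (31.8 to 42.6) and 51.3% of those at 10 or more (41.8 to 60.7). Both *Mov10* Deletion libraries climbed from 12.2% to 39.0%, and from 13.2% to 39.0%. The number of members named separated the clusters as clearly. With 2 or more members 48.2% (43.0 to 53.3), 45.4% (39.8 to 51.2) and 51.1% (40.4 to 61.7) were on an enriched AGO2 cluster, and with a single member 18.3% (15.9 to 21.0), 12.3% (10.9 to 13.8) and 13.1% (10.9 to 15.5). The intervals of the 3 libraries overlapped among clusters with several members. Among the single-member clusters, which were most of the family, WT stayed above both *Mov10* Deletion libraries. Score and number of members moved together, so that these comparisons are not separate. Shares by score were not taken over all target clusters, and whether the rise is particular to the family was not tested.

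**Figure D2:**
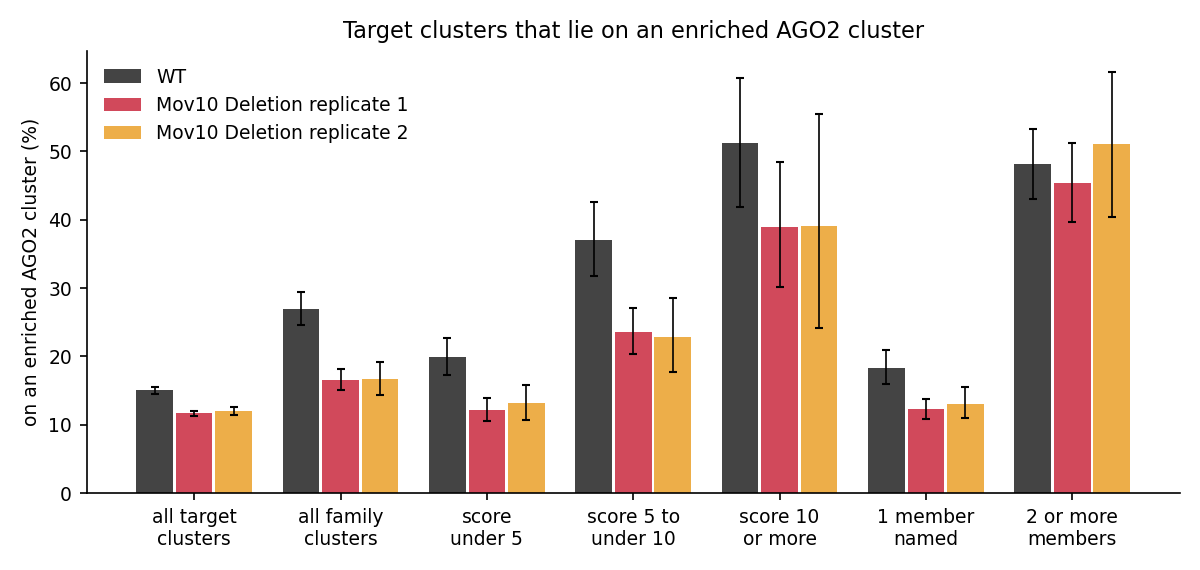
Share of target clusters on an enriched AGO2 cluster (y axis, %) for all target clusters, all family clusters and the family clusters by score and by number of members named, in each library, with exact 95% intervals. The share rises from 19.9% to 51.3% with the score in WT, and the libraries come together at 45.4% to 51.1% where 2 or more members are named.

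Where a family cluster lay on any AGO2 cluster, the median log2 IP over input was 2.34 in WT (1067 clusters), 2.19 in *Mov10* Deletion replicate 1 (1381) and 2.25 in replicate 2 (573). All target clusters on an AGO2 cluster gave 1.93, 1.84 and 1.84. At the 465 family clusters of WT that overlapped 1 of *Mov10* Deletion replicate 1, both on an AGO2 cluster, the log2 in WT minus that in *Mov10* Deletion had a median of 0.06 (SD 1.05 across clusters). Against replicate 2 it was 0.09 (SD 1.07, 252 clusters), and between the *Mov10* Deletion replicates 0.26 (SD 1.23, 244 clusters). Over all target clusters the same medians were −0.07, 0.07 and 0.17, so that here too the largest was that between the replicates. The AGO2 cluster lists of the *Mov10* Deletion libraries share 614927 coordinates, 99.8% of each, so that their AGO2 intervals are not separate calls, while WT has its own.

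Family clusters of high score were found again in the other libraries and those of low score mostly were not. Of the 1318 WT family clusters, 520 (39.5%, 36.8 to 42.2) overlapped a family cluster of *Mov10* Deletion replicate 1, 275 (20.9%, 18.7 to 23.2) 1 of replicate 2, and 207 (15.7%, 13.8 to 17.8) 1 of both. No family cluster of either overlapped 730 of them (55.4%). Counting target clusters of any miRNA, 45.4% of the WT family clusters were overlapped by none, where 54.0% of all WT target clusters were. Any target cluster, of whichever miRNA, lay over 49.5% and 29.2% of the WT family clusters, where it lay over 40.4% and 24.0% of all WT target clusters.

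In the other direction 22.6% of the family clusters of *Mov10* Deletion replicate 1 overlapped a WT family cluster and 11.6% 1 of replicate 2. Of the family clusters of replicate 2, 27.9% overlapped WT and 27.9% replicate 1. Any target cluster of WT lay over 29.9% of the family clusters of replicate 1 (all target clusters 27.7%) and over 34.8% of those of replicate 2 (all 34.9%). Between the *Mov10* Deletion replicates the values were 17.5% (all 14.9%) and 35.3% (all 32.7%). Family clusters of replicate 2 were met at the same share in WT and in the replicate of the same genotype, but these overlaps are unlike measures. The share of replicate 2 family clusters met by any WT target cluster was at the background. All 273 family clusters shared by the replicates had identical coordinates, as had all 4052 of their overlapping target clusters. No family cluster was identical between WT and *Mov10* Deletion, where any overlap of at least 1 nt counted. These shares therefore do not rank the agreement of the replicates against that with WT.

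Of WT family clusters at a score of 10 or more, 112 of 115 (97.4%, 92.6 to 99.5) were met by *Mov10* Deletion replicate 1 and 88 (76.5%, 67.7 to 83.9) by replicate 2. Under a score of 5 these shares were 24.9% (22.11 to 27.95) and 10.4% (8.47 to 12.6). For replicate 1, 79.7% of its clusters at 10 or more were met in WT (71.3 to 86.5), and for replicate 2 it was 80.5% (65.1 to 91.2). Overlap by score was not taken over all target clusters either, so that this rise may not be particular to the family.

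**Figure D3:**
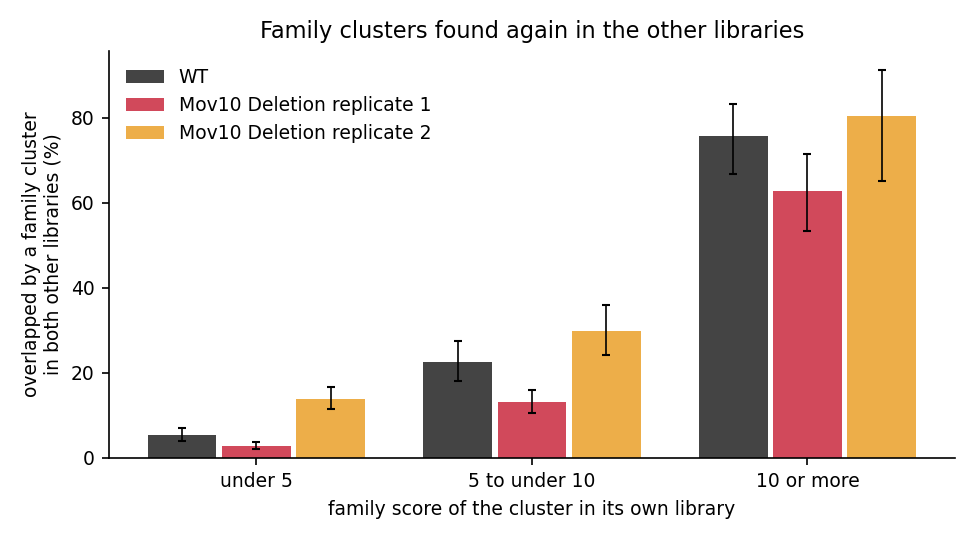
Share of the family clusters of each library that overlap a family cluster in both other libraries (y axis, %), by the score in their own library (x axis), with exact 95% intervals. The share climbs from between 2.81% and 13.9% under a score of 5 to between 62.7% and 80.5% at 10 or more.

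A family cluster lay in 1008 genes in WT, 1589 for *Mov10* Deletion replicate 1 and 788 for its replicate 2. Together these are 2332 genes, 24.6% of the 9482 genes with any target cluster. In every library 255 genes had one (10.9% of the 2332), where 39.9% of genes with any target cluster had a target cluster in every library. The latter counts clusters of any miRNA, which are many more, so that these shares do not compare the family with other miRNAs. Without replicate 2 the count of 255 became 583, and of the 2332 genes 920 had a family cluster with a score of at least 5. WT alone had 353 genes, both *Mov10* Deletion libraries without WT had 143, and replicate 1 alone had 863. The share of genes that carried a family cluster went up with the number of target clusters on the gene. It was 9.77% of genes with 1 or 2 target clusters over the 3 libraries, 24.99% with 3 to 9, 57.9% with 10 to 29 and 94.2% with 30 or more.

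Genes were ranked by the lowest of their 3 library scores. After the 3 rRNA genes the top 10 included *Ppp4r3a*, *Ptn*, *Actb*, *Igf2*, *Sox5* and *Rb1*, and the best clusters of each overlapped between all libraries. *Ppp4r3a*, a regulatory subunit of protein phosphatase 4, scored 30.7 in WT at chr12:101049291-101049397, 32.5 and 33.6. Its cluster named 6, 5 and 2 members, no other miRNA, and lay on an AGO2 cluster with a log2 of 3.63, 5.41 and 4.34. *Igf2*, the growth factor of fetal tissues, scored 73.4 in WT at chr7:142658560-142658688, 42.1 and 15, on AGO2 clusters of 6.09, 5.43 and 4.99. *Actb*, the cytoskeletal beta-actin, scored 44.2, 40.1 and 15.2 at 1033 nt from its gene end in WT. No AGO2 cluster lay there in WT, and the *Mov10* Deletion libraries had a log2 of 2.77 and 3.72.

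*Sox5*, a transcription factor of deep-layer neurons, scored 28.7, 15.3 and 13.9 at 288147 nt from its gene end in WT, with a log2 of 1.95, 1.19 and 1.91. *Rb1*, the retinoblastoma cell cycle regulator, scored 14.8, 14.8 and 13.0, with a log2 of 3.22 (−log10 p 2.07), 2.24 and 2.13. *Ptn*, the secreted neurite growth factor pleiotrophin, scored 19.5, 17.1 and 16.6 at 293 nt from its end in WT, yet its AGO2 log2 was −0.37, 0.27 and 0.70. High family scores in all libraries were thus found both with and without AGO2 enrichment.

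**Figure D4:**
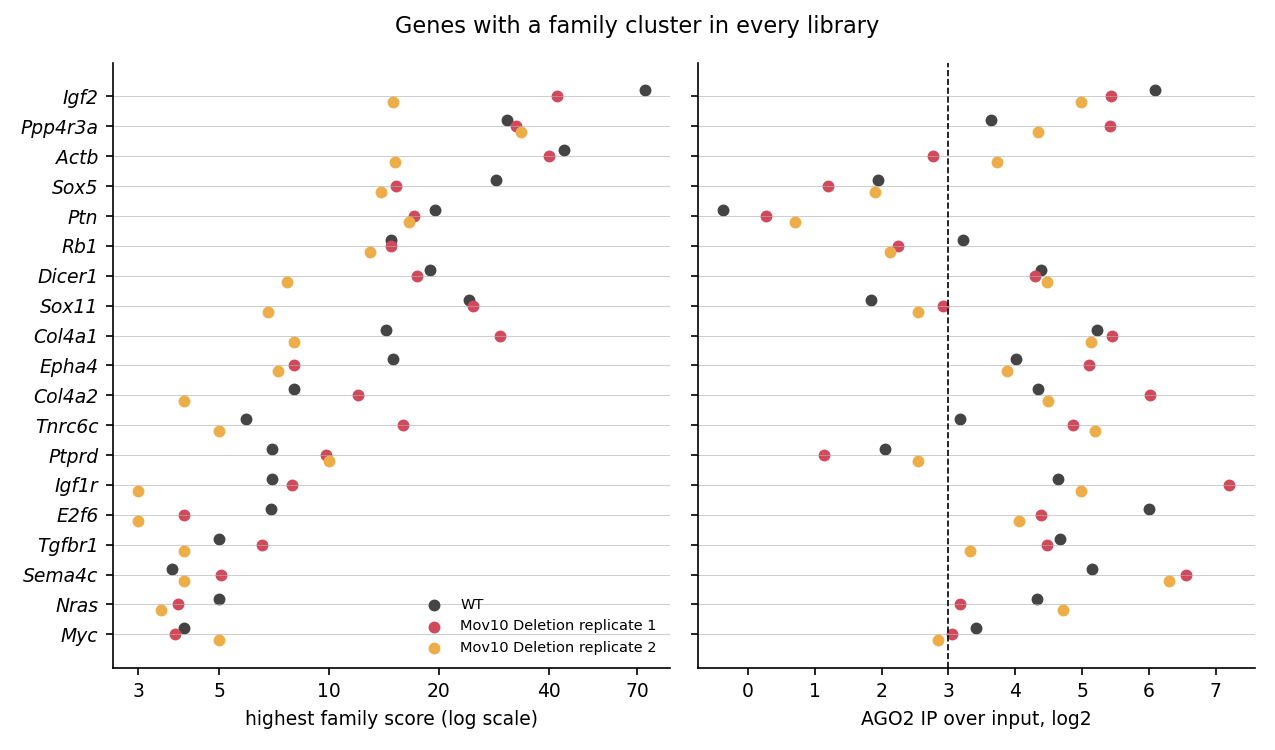
Highest family score (left, log scale) and log2 AGO2 IP over input at that cluster (right) for 19 named genes with a family cluster in every library, 1 point per library, with a dashed line at the log2 of 3 used for enrichment. *Igf2* has the highest WT score at 73.4, *Ptn* lies between −0.37 and 0.70 in AGO2 log2, and *Actb* has no AGO2 point in WT.

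Genes with a family cluster in WT alone scored lower. The 5 highest were *Xpo4* (9.65), a nuclear transport receptor, *Tusc2* (9.09), *Gpr85* (8.96), an orphan receptor of the brain, *Patl1* (8.80), an mRNA decay factor, and *Klf9* (8.67), a transcription factor. *Tusc2*, *Gpr85* and *Patl1* lay on enriched AGO2 clusters, with a log2 of 4.80, 4.66 and 5.004, and *Xpo4* and *Klf9* had 1.76 and 1.86. Other genes had a family cluster in each *Mov10* Deletion library but none in WT. Of these, *Atp6v1a*, a subunit of the vacuolar proton pump, scored 7.56 and 7.03. *Ralgps2* scored 7 and 8, *Plcb1*, a phospholipase, 6.09 and 6.12, and *Dcp2*, the mRNA decapping enzyme, 12 and 6. *Atp6v1a* and *Dcp2* had their best cluster at the same place in both replicates. The best clusters of *Ralgps2* and *Plcb1* lay at different places.

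The protein-coding genes with the most family clusters were very long. *Rbfox1*, a neuronal splicing factor, had 10 in WT, 18 for *Mov10* Deletion replicate 1 and 7 for its replicate 2. The adhesion receptors *Tenm2* and *Ptprd* had 11, 12 and 7, and 6, 17 and 6, and the synaptic scaffold *Dlg2* 8, 10 and 5. Their scores stayed at or under 12. *Rn18s-rs5* had 14, 16 and 12.

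Among 35 genes listed as developmental let-7 targets, 29 had any target cluster and 18 of these a family cluster in at least 1 library (62.1%). With 3 to 9 target clusters per gene it was 12 of 15, beside the 24.99% of all such genes, and with 10 to 29 it was 5 of 8, beside 57.9%. Family clusters lay on 15 of the genes in WT, 17 for *Mov10* Deletion replicate 1 and 10 for its replicate 2, and on 9 in every library. *Dicer1*, which cuts miRNA precursors, scored 18.9, 17.4 and 7.69 at chr12:104702745-104702859 in WT and chr12:104702774-104702887 in *Mov10* Deletion, with an AGO2 log2 of 4.39, 4.30 and 4.48. *Igf1r*, the receptor of insulin-like growth factors, scored 7, 7.92 and 3 on AGO2 clusters of 4.64, 7.20 and 4.98. *Tgfbr1*, a receptor of TGF-beta, scored 5, 6.55 and 4, and *Hic2*, a transcriptional repressor that overlaps another gene, 6, 5.20 and 3. The best *Hic2* clusters lay at different places, but a second WT cluster of 5.92 overlapped the best one of replicate 1.

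*E2f6* and *Myc*, transcription factors of the cell cycle, scored 6.92, 4 and 3, and 4, 3.77 and 5. *Nras*, the GTPase, scored 5, 3.85 and 3.47, and *Plagl2*, a zinc finger factor, 8.06, 3 and 3.61. The best *Nras* cluster of both *Mov10* Deletion libraries lay apart from that of WT but overlapped a second WT cluster of 4.77. The *Plagl2* cluster of replicate 2 lay apart from the best ones of the other libraries. *Hmga1*, a chromatin protein, scored 3, 3 and 4.82. No family cluster was found on *Lin28a*, *Hmga2*, *Trim71* or *Nr2e1*, which had no target cluster of any miRNA either. *Lin28b*, which blocks let-7 maturation, had 5, 3 and 3 target clusters and none of the family. None lay on *Ccnd2*, with 3, 7 and 4 target clusters. With the depth unknown, such clusters were not detected here and are not shown to be absent.

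Of 20 miRNA pathway genes 12 had a family cluster, among 18 with any target cluster, and 2 had one in every library. These genes had a median of 9 target clusters, against 3 over all genes. At 3 to 9 target clusters 4 of 8 had a family cluster, beside 24.99% of all genes, and at 10 to 29 it was 4 of 6, beside 57.9%. Besides *Dicer1*, the gene with one in every library was *Tnrc6c*, a silencing partner of AGO2, with scores of 5.92, 16 and 5 and AGO2 log2 values of 3.18, 4.86 and 5.19. *Tnrc6a* had 1 of 8 in WT alone, *Tnrc6b* 3.28 in WT and 4.14 in *Mov10* Deletion replicate 1. *Tut4*, a uridylyltransferase that acts on let-7 precursors, scored 3 in WT and 5 in replicate 1, and *Ago2* itself 3 and 3.02. The best clusters of *Tnrc6b* and of *Ago2* lay at different places in WT and replicate 1. *Ago1* scored 7.76 in replicate 1, and *Dis3l2*, which degrades uridylated let-7 precursors, 3.91 in replicate 2. *Mov10* had no target cluster in any library, so that the family clusters do not check the genotype. *Numa1*, a microtubule binding protein, had 1 family cluster, in *Mov10* Deletion replicate 1 alone, with the lowest score of 3 at 394 nt from its end and an AGO2 log2 of 4.19. None of the 12 genes named for let-7 or miR-98 that had a strand carried a family cluster, and 5 carried a target cluster of any miRNA. Genes of other names that contain them were not looked up.

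Of 33 axon guidance genes 19 had a family cluster, all 33 had a target cluster, and 6 had a family cluster in every library. *Epha4*, an ephrin receptor, scored 15, 8 and 7.23 on AGO2 clusters with a log2 of 4.004, 5.10 and 3.88. *Unc5c*, a netrin receptor, scored 28.95 in WT and 8.98 in *Mov10* Deletion replicate 1 and had none in replicate 2. *Sema4c*, a semaphorin, scored 3.72, 5.07 and 4 on AGO2 clusters of 5.15, 6.55 and 6.30. *Robo2* and *Dcc*, receptors of slits and netrins, scored 5.94, 10.1 and 5.93, and 5.95, 8 and 3, with the best clusters at different places. The best WT cluster of each gene did overlap a family cluster of replicate 1, and 1 place in *Dcc* held a family cluster in all libraries. The best clusters of *Ephb1* and *Plxna2* also lay at different places, at scores of 3, 4 and 4, and of 3, 5.68 and 3. *Epha7* had 7.06 and 3.02 in the *Mov10* Deletion libraries, again at different places. These genes had a median of 14 target clusters, against 3 over all genes, and at 10 to 29 target clusters 7 of 12 had a family cluster, beside 57.9% of all genes.

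Of 12 collagen genes, *Col4a1* and *Col4a2*, the neighbouring genes of the basement membrane collagen IV, had a family cluster, and both had it in every library. They are 2 of the 8 collagen genes with any target cluster, a share at that of all genes (24.6%). *Col4a1* scored 14.3, 29.4 and 8 at 1236 nt before its end in WT and 1168 nt in *Mov10* Deletion, with an AGO2 log2 of 5.23, 5.45 and 5.13. *Col4a2* scored 8, 12 and 4 with 4.34, 6.01 and 4.49. Of 28 genes of neural progenitors and neuron fate 9 had a family cluster, among 23 with any target cluster, and 3 had it in every library. At 3 to 9 target clusters it was 1 of 9, below the 24.99% of all genes, and at 10 to 29 it was 3 of 6, beside 57.9%. Among these were *Map2*, a dendritic microtubule protein (4.34, 8 and 5.94, with the best clusters at different places), and *Sox11*, a transcription factor of young neurons, at 24.1, 24.8 and 6.82, with an AGO2 log2 of 1.84, 2.92 and 2.55. *Dcx*, the doublecortin of migrating neurons, scored 9.74 and 10.9 in WT and replicate 1, *Rbfox3* 6 and 7, and *Cux2* 4 and 3.68. The best *Dcx* clusters lay at different places, each overlapped by a family cluster of lower score in the other library. *Bcl11a* scored 4.57 and 3 in the *Mov10* Deletion replicates, and *Bcl11b* 13.3 in replicate 1 alone. The best *Bcl11a* clusters lay at different places, and a second cluster of replicate 1, at 3.85, overlapped that of replicate 2.

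The tissue label was checked with marker miRNAs and genes. miR-124-3p, the leading neuronal miRNA, was named 9312 times in WT, 10630 for *Mov10* Deletion replicate 1 and 4962 for its replicate 2, miR-9-5p 2013, 2041 and 924 times and miR-128-3p 315, 569 and 283 times. The liver and muscle miRNAs miR-122-5p, miR-1a-3p, miR-133a-3p and miR-206-3p were each named at most 2 times per library. Blood miR-451a was named 5, 23 and 10 times, miR-223-3p at most 1 time, and endothelial miR-126a-3p 30, 100 and 27 times. Of neuronal genes *Tubb3* had 20, 26 and 27 AGO2 clusters, *Dcx* 38, 50 and 50, *Map2* 136, 241 and 241, and *Stmn2* 51, 74 and 74. Few of these were enriched, 0, 2 and 2 on *Tubb3*, 1, 0 and 0 on *Dcx*, 0, 3 and 8 on *Map2*, and 0, 3 and 3 on *Stmn2*. The counts were not set against gene length. *Apoa1* and *Ckm* had none, and *Alb*, *Myh3*, *Ptprc* and *Hbb-bs* between 0 and 3. *Hbb-bs* was enriched in every library, at a log2 of up to 5.004, 5.12 and 5.78. Microglial *Csf1r* and *Cx3cr1*, endothelial *Pecam1* and *Cdh5*, astrocytic *Aqp4* and the oligodendrocyte lineage genes *Pdgfra* and *Sox10* had between 2 and 24, and astrocytic *Slc1a3* 72 to 96. Fewer cells of a type and less RNA per cell cannot be told apart in whole brain, and the part of blood and vessel RNA in the family clusters was not tested.

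Genes with a family cluster at their 3′ end held let-7 seed matches in their 3′ UTR more often than genes with other target clusters there. The match is the reverse complement of the seed, CTACCTC, searched on the mRNA strand. Sequences were taken from the longest 3′ UTR of the gene of the same symbol in GENCODE vM39 (GRCm39), since no sequence of mm10 around the clusters was at hand, so that a match belongs to a gene and not to a cluster. Of all 19113 protein-coding genes with a 3′ UTR, 12.2% held a match. Of 405 genes with a family cluster in their last 1000 nt, 142 (35.1%) did, against 478 of 3445 genes (13.9%) with a target cluster there and none of the family. The median 3′ UTR was of like length, 2041 nt and 2104 nt. Per kb of 3′ UTR there were 0.181 matches against 0.0633. Where the family cluster also lay on an enriched AGO2 cluster it was 60 of 124 genes (48.4%).

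The same held in each library. In WT 43.5% of 184 genes with a family cluster at the 3′ end had a match and 14.3% of 2219 others, in *Mov10* Deletion replicate 1 35.3% of 224 and 14.1% of 2381, and in replicate 2 39.8% of 118 and 13.1% of 1335. The miR-9-5p seed match, ACCAAAG, did not follow the family clusters, with 17.8% of the 405 genes and 20.8% of the 3445. It followed the clusters of miR-9-5p instead, with 34.7% of 406 genes, of which 12.3% had a let-7 match. Over all places in the gene the difference was smaller, with 22.2% of 2208 genes with a family cluster and 14.2% of 6503 genes with only other target clusters.

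**Figure D5:**
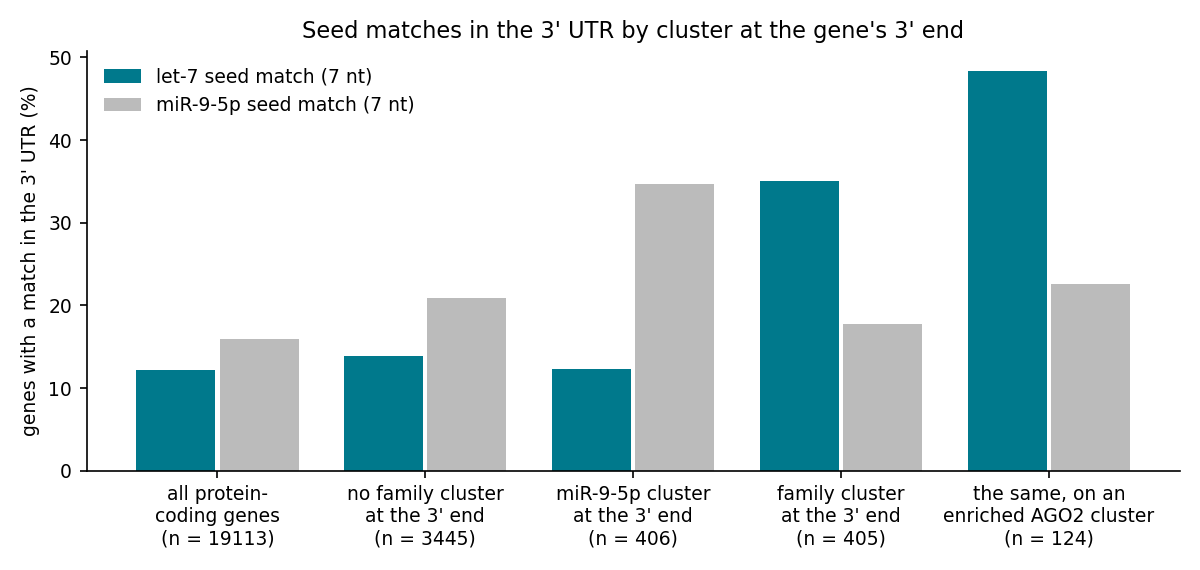
Share of protein-coding genes whose 3′ UTR holds a seed match (y axis, %), for let-7 and for miR-9-5p, by the kind of target cluster in the last 1000 nt of the gene in any library (x axis, with the number of genes). The let-7 bars rise to 35.1% and 48.4% for genes with a family cluster there and the miR-9-5p bar to 34.7% for genes with a miR-9-5p cluster.

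Sites in the 3′ UTR of genes named above are shown, from 22 nt before the match to 1 nt after it, with the match in capitals. They were chosen after their values were seen. Of 13 named genes with a match in the 3′ UTR and a WT family cluster, 8 had a match whose distance from the end of the mRNA was within 100 nt of that of the best WT cluster from the end of the gene, and 6 of these are shown. In *Ago2*, *Klf9*, *Nras*, *Plxna2* and *Tnrc6c* the nearest match was 630 nt or more away by this count.
Igf1r: ggcttgtttttcaaacatttatCTACCTCa
Ptprd: atactaaaaagaaactagaaggCTACCTCa
Sema4c: ttaacttttgcacaggcaccagCTACCTCa
Tgfbr1: ggtgtttaggaggctggttgttCTACCTCa
Plagl2: tctctgattcagaaacacacttCTACCTCt
Tusc2: gtcagagcatttcagccgtttgCTACCTCg

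The *Igf1r* match lay 4537 nt before the end of the GRCm39 mRNA. The WT family cluster, chr7:68229014-68229171 on the plus strand of mm10, ended 4497 nt before the end of the gene, and that of both *Mov10* Deletion libraries 4498 nt before it. For *Ptprd* the match lay at 1339 nt, the WT cluster (chr4:75942509-75942613, minus strand) at 1272 nt and the *Mov10* Deletion cluster at 1277 nt. For *Sema4c* the match lay at 813 nt, the WT cluster (chr1:36549398-36549493, minus strand) at 759 nt and the *Mov10* Deletion cluster at 780 nt. In these 3 genes the clusters of all libraries overlapped. *Tgfbr1* had its match at 4082 nt and the best WT cluster (chr4:47410823-47410885, plus strand) at 4041 nt, while the best cluster of both *Mov10* Deletion libraries lay at 404 nt. Both places held a family cluster in every library, at scores of 5, 4 and 3 at the match and 4.91, 6.55 and 4 at the other. The *Plagl2* match lay at 2140 nt, with the clusters of WT (chr2:153229867-153229936, minus strand) and of *Mov10* Deletion replicate 1 at 2098 nt and 2099 nt and that of replicate 2 at 3724 nt. The *Tusc2* match lay at 710 nt, with the WT cluster (chr9:107565350-107565441, plus strand) at 667 nt. These distances were counted in different builds and annotations and were not aligned to each other. *Ptn* and *Col4a1* had no such match in their 3′ UTR, and *Actb* had 1 before it.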

How the data were processed

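AGO2 chimeric eCLIP of 3 IP libraries was analysed, and the 3 inputs entered through the authors' IP over input values. Per the methods, the authors used UMI-tools 1.1.1, cutadapt 3.2, STAR 2.7.7a on mm10 and CLIPper, and the tools listed with the samples include Bowtie 1.2.3. For each AGO2 cluster the authors deposited the −log10 p-value, which stops at 400, and the log2 of IP over input. Each target cluster was deposited with a miRNA and a score. Library depth is unknown.

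Clusters were assigned to RefSeq gene bodies of mm10 on the same strand, with an overlap of at least 1 nt, in Python 3.11.15 with pandas 2.3.3 and scipy 1.17.1. Overlap and interval code was tested on simulated data. Strands, taken from GENCODE and the RefSeq sequence tables, were found for 21437 of 21896 protein-coding genes, and genes without one were left out. The members and gene lists were chosen with earlier results of these data known. Named genes are the 10 with the highest score in all libraries (lowest library counted) and the 5 highest in WT alone. Others are the 5 highest in both *Mov10* Deletion libraries alone, the 5 with the most clusters and up to 8 of each gene list. The genes named for let-7 or miR-98, *Numa1* and *Mov10* were looked up as well. The seed match inside a cluster was planned for sequence of mm10. It was replaced, after the data were seen, by matches in 3′ UTRs joined by gene symbol. Some of the genes that this rule names are not reported here.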

Additional observations from a re-analysis of the deposited data

Results flagged for a closer look

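Relatives of the family that were not collected were also named, and let-7k made up a larger share of assignments in both *Mov10* Deletion libraries than in WT. let-7k, which RefSeq lists with the same seed in a mature form of 19 nt, was named 7 times of 22074 in WT (0.0317%, exact 95% interval 0.0128 to 0.0653), 79 times of 30526 in *Mov10* Deletion replicate 1 (0.259%, 0.205 to 0.322) and 25 times of 13468 in replicate 2 (0.186%, 0.120 to 0.274). On coordinates of family clusters lay 5, 19 and 9 of these. The 3p arms of let-7 precursors were named 4 times in WT, 18 times in replicate 1 and 5 times in replicate 2, with intervals that overlapped between all libraries. The difference between the genotypes was not tested, since WT has 1 library.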

How the results depend on the processing

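Of 36 alternatives 14 stayed within the replicate spread, the interval or 1.5 times of the count. For the shares averaged over *Mov10* Deletion, leaving out either replicate stays within the replicate spread by construction. Those alternatives are counted among the 14 but could not have moved. The family's share was 9.55% in WT and 9.05% on average in *Mov10* Deletion over assignments, 5.47% and 6.88% at a score of at least 5, and 5.54% and 7.15% with no other miRNA named, and it ran from 7.90% to 8.68% without either replicate. The share on enriched AGO2 clusters was 23.4% and 14.0% at a −log10 p of at least 5, 37.7% and 24.7% at a log2 of at least 2, 14.8% in *Mov10* Deletion at an overlap of at least 50% and 16.9% there without rRNA clusters (chosen after seeing the data), and 16.6% to 16.7% without either replicate. Over all target clusters of WT and *Mov10* Deletion replicates 1 and 2 it was 11.8%, 9.40% and 8.98% at that −log10 p. At that log2 it was 22.8%, 17.6% and 16.8%. At gene ends the family's share was 6.60% and 6.27% for the last 500 nt, 24.1% and 20.3% for the last 2000 nt, and 10.9% to 13.7% without either replicate. All target clusters gave 9.81%, 7.22% and 8.03% for the last 500 nt and 27.8%, 21.6% and 23.1% for the last 2000 nt. WT clusters were overlapped in 20.9% at a score of at least 5, and in 20.9% to 39.5% with a single *Mov10* Deletion library. Genes numbered 920 at a score of at least 5, and those in every library 327 to 583 with a single *Mov10* Deletion library. The 6-nt match gave 62.0%, where 36.0% of the genes with other target clusters at the 3′ end had one. No paired analysis was possible because no result comes from a test and WT has 1 library. The match inside a cluster, its 6-nt form and the widened cluster were not run. Unknown depth limits every absence.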
